A study of Mus musculus with 18 samples.

Results

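The 10 genes described here make and load the peptide cargo of major histocompatibility complex (MHC) class I molecules: Tap1, Tap2, Tapbp, Psmb8, Psmb9, Psmb10, B2m, H2-K1, H2-D1 and Nlrc5. They were chosen by symbol, and all 10 were found among the 26143 genes of an RNA-seq table of 18 mouse libraries labelled as squamous epithelium. The WT group had 3 libraries from the esophagus of wild type mice. The p53 group had 3 libraries from the tongue of mice heterozygous for LSL-p53+/R172H, a Trp53 allele that encodes a mutant p53 once a floxed stop is removed. The E20 group had 6 tongue libraries with LSL-PIK3CAH1047R, an activating PI3-kinase allele behind the same kind of stop, and the E20/p53 group had 6 tongue libraries with both alleles and K14-Cre, a recombinase driven by a keratin promoter of basal squamous cells. Of the 4 groups, the labels name a Cre in E20/p53 and in no other. The series title speaks of 4NQO, an oral carcinogen, and the labels do not say which libraries were exposed to it. Strain, age and number of mice are not in the labels either, so the p-values below measure the spread between libraries, which may be technical.

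Cytosolic proteins are cut by the proteasome, and in cells stimulated by interferon the catalytic subunits Psmb8, Psmb9 and Psmb10 replace Psmb5, Psmb6 and Psmb7 to form the immunoproteasome. The Tap1 and Tap2 proteins pump the peptides into the endoplasmic reticulum, where tapasin (Tapbp) holds the transporter beside empty class I molecules until a peptide fits. A class I molecule is a heavy chain, such as H2-K1 or H2-D1, bound to beta-2 microglobulin (B2m), and it shows the peptide to CD8 T cells at the cell surface. Nlrc5 is the transactivator that works at class I promoters. In squamous epithelium and its tumours the pathway is best known for its induction by interferon and for its loss where tumour cells escape T cells.

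The 18 libraries held from 14592044 to 18176060 reads assigned to genes, and values are given as CPM, the reads per 1000000 of a library's scaled total. The libraries numbered 1 to 3 and 4 to 6 of E20 and of E20/p53 stood apart, although the labels do not mark 2 sets. Inside a set of 3 libraries the median variance over genes, taken as chi-square, was 1.68 to 2.44 times that of counting error. Over all 6 libraries this variance was 8.51 times in E20 and 20.46 times in E20/p53. Squamous markers went against the label in several sets. The summed level of 10 squamous genes, keratins 5 and 14 among them, was 707 to 722 CPM in E20/p53 libraries 1 to 3. It was 112 to 131 CPM in E20 libraries 1 to 3 and 28.8 to 30.9 CPM in WT. In p53, E20 4 to 6 and E20/p53 4 to 6 it was 3.25 to 4.61 CPM. Krt5 had a mean of 0.0784 CPM or less in these sets and in WT, with 0 reads in E20/p53 4 to 6. In WT the highest of the 10 was Krt14, at 13.4 CPM, and 5 of the 10 were under 1 CPM. Summed levels of 8 fibroblast genes were 150.5 to 158 CPM in E20/p53 1 to 3, 1488 to 1607 CPM in WT and 8841 to 22090 CPM in the other 4 sets. In WT Col1a2 alone gave 1344 CPM, against 1.58 CPM in E20/p53 1 to 3. Dcn, Lum and Pdgfra went the other way between these sets, with Pdgfra at 8.37 CPM in WT and 50.7 CPM in E20/p53 1 to 3. Of 14 leukocyte genes, 11 to 12 were under 1 CPM in each set, and Ptprc, the pan-leukocyte marker CD45, had a mean of at most 0.0874 CPM in any set. The leukocyte sum lay between 3.27 and 7.12 CPM in the p53, E20 and E20/p53 4 to 6 libraries, between 18.1 and 20.03 CPM in WT and between 21.7 and 25.9 CPM in E20/p53 1 to 3, where Cd68 alone gave 20.9 CPM. Skeletal muscle genes (6 listed) summed to 390 to 1276 CPM in p53, both E20 sets and E20/p53 4 to 6. In WT and E20/p53 1 to 3 the sum was 2.41 to 4.15 CPM. Des alone gave 554.5 and 640 CPM in the E20 sets and 368 CPM in E20/p53 4 to 6. In each E20 set 4 of the 6 genes were under 1 CPM. Myod1 was at 153 CPM in p53, 9.46 CPM in E20/p53 4 to 6 and 0.157 CPM or less in the other sets. The part of these marker differences in the results below was not tested. In such bulk libraries fewer cells of a type and less RNA per cell cannot be told apart. Levels of the 10 genes are given below for the sets as well as for the groups, and some other genes for the groups alone.

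In the mm10 build with GENCODE M21 gene models, 7 of the 10 genes lie on chromosome 17, in or beside the mouse MHC. Psmb9 (chr17:34181987-34187764, minus strand), Tap1 (chr17:34187553-34197225, plus), Psmb8 (chr17:34197721-34201454, plus) and Tap2 (chr17:34203527-34216321, plus) follow one another within 34335 bases. Tapbp (chr17:33915899-33929292, plus) and H2-K1 (chr17:33996017-34000347, minus) lie on one side of that cluster and H2-D1 (chr17:35262730-35267499, plus) on the other. Psmb10 (chr8:105935735-105938444, minus) and Nlrc5 (chr8:94434356-94527272, plus) are on chromosome 8, and B2m (chr2:122147686-122153083, plus) is on chromosome 2. Tap1 and Psmb9 share 212 bases at their 5′ ends on opposite strands, and Tapbp shares 3422 bases with Zbtb22 on the same strand, a gene at up to 43.0 CPM here. Whether reads were counted by strand is not given in the sources used here, so reads from such shared bases may have been assigned to either gene or to neither. H2-K1 and H2-D1 are near-identical paralogs whose alleles differ between mouse strains, and the split of reads between them is uncertain.

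The promoter sequences below are shown because genes of this pathway are known targets of interferon signalling, and some of them of NF-kB. Neighbouring genes also share a start region. They are the 250 bases before the RefSeq start site on GRCm38.p6, 5′ to 3′ on the gene's own strand. Promoters of 8 of the 10 genes were matched, and Tap2 and Nlrc5 were not. Capitals mark every match, on either strand, to 5 motifs: GAAA followed after 2 free bases by GAAA (the interferon-stimulated response element, ISRE), TTCNNNGAA (the gamma-activated site, GAS), GGGNNTTCC (an NF-kB site), CCAAT, and TGACG (the first bases of a cAMP response element). Only these letters were searched, so elements that depart from them are not marked. The Tap1 window (chr17:34187306-34187555, plus) is shared with Psmb9, whose start lies 225 bases away on the other strand:
Tap1: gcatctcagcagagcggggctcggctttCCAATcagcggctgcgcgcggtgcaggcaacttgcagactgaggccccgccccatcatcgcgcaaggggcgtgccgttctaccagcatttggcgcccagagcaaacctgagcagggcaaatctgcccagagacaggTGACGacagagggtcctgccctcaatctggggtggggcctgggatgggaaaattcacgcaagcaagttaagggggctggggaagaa
B2m (chr2:122147437-122147686, plus) carries the one ISRE match among the 8 genes:
B2m: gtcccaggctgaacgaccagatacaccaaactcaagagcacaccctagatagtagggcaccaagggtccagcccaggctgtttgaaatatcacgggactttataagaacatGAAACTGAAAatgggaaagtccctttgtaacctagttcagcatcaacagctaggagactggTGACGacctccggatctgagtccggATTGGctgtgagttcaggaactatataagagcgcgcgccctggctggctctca
Psmb8 (chr17:34197945-34198194, plus) carries the one GAS match:
Psmb8: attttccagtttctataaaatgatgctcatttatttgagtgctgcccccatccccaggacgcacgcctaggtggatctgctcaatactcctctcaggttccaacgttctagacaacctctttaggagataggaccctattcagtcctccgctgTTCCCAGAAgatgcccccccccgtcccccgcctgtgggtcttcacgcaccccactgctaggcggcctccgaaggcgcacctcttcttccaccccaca
H2-K1 (chr17:34000348-34000597, minus) and H2-D1 (chr17:35262844-35263093, plus) carry the NF-kB matches:
H2-K1: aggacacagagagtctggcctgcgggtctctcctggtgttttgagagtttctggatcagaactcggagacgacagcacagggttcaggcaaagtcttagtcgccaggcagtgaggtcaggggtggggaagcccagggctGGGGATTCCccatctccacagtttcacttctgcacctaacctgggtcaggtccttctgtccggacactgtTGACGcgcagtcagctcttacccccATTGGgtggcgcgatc
H2-D1: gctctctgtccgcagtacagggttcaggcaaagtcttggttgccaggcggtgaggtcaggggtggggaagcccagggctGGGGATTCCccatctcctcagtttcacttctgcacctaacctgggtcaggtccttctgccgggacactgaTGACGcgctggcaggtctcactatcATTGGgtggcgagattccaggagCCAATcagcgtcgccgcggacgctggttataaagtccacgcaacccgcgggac

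In B2m the ISRE letters lie 139 to 130 bases before the start, and 2.98% of all 32851 promoter windows of the same length hold that motif. The GAS letters of Psmb8 lie 97 to 89 bases before its start (7.02% of windows). The NF-kB letters lie 111 to 103 bases before the start in H2-K1 and 171 to 163 bases before it in H2-D1 (4.98% of windows). Both heavy chain windows carry them inside an identical run of 47 bases, and over 190 aligned bases these windows are 87.4% identical. CCAAT was found in 6 of the 8 windows against 33.8% of all windows, and TGACG in 5 of 8 against 17.8%. The 8 windows are not separate sequences: Tap1 and Psmb9 share 225 of their bases and count the same CCAAT and TGACG, and the H2-K1 and H2-D1 windows are near copies. The Psmb10 window holds none of the 5 motifs. These are exact matches of letters, so a window without a match may still hold a variant of the element. No binding was measured.

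All 10 genes were read in the 15 tongue libraries, and inside a tongue set the 3 libraries of a gene varied little, with a coefficient of variation between 0.884% and 15%. In the WT esophagus Psmb8, Psmb9 and Tap1 were at 0.3725 CPM or less in every library.

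**Figure D1:**
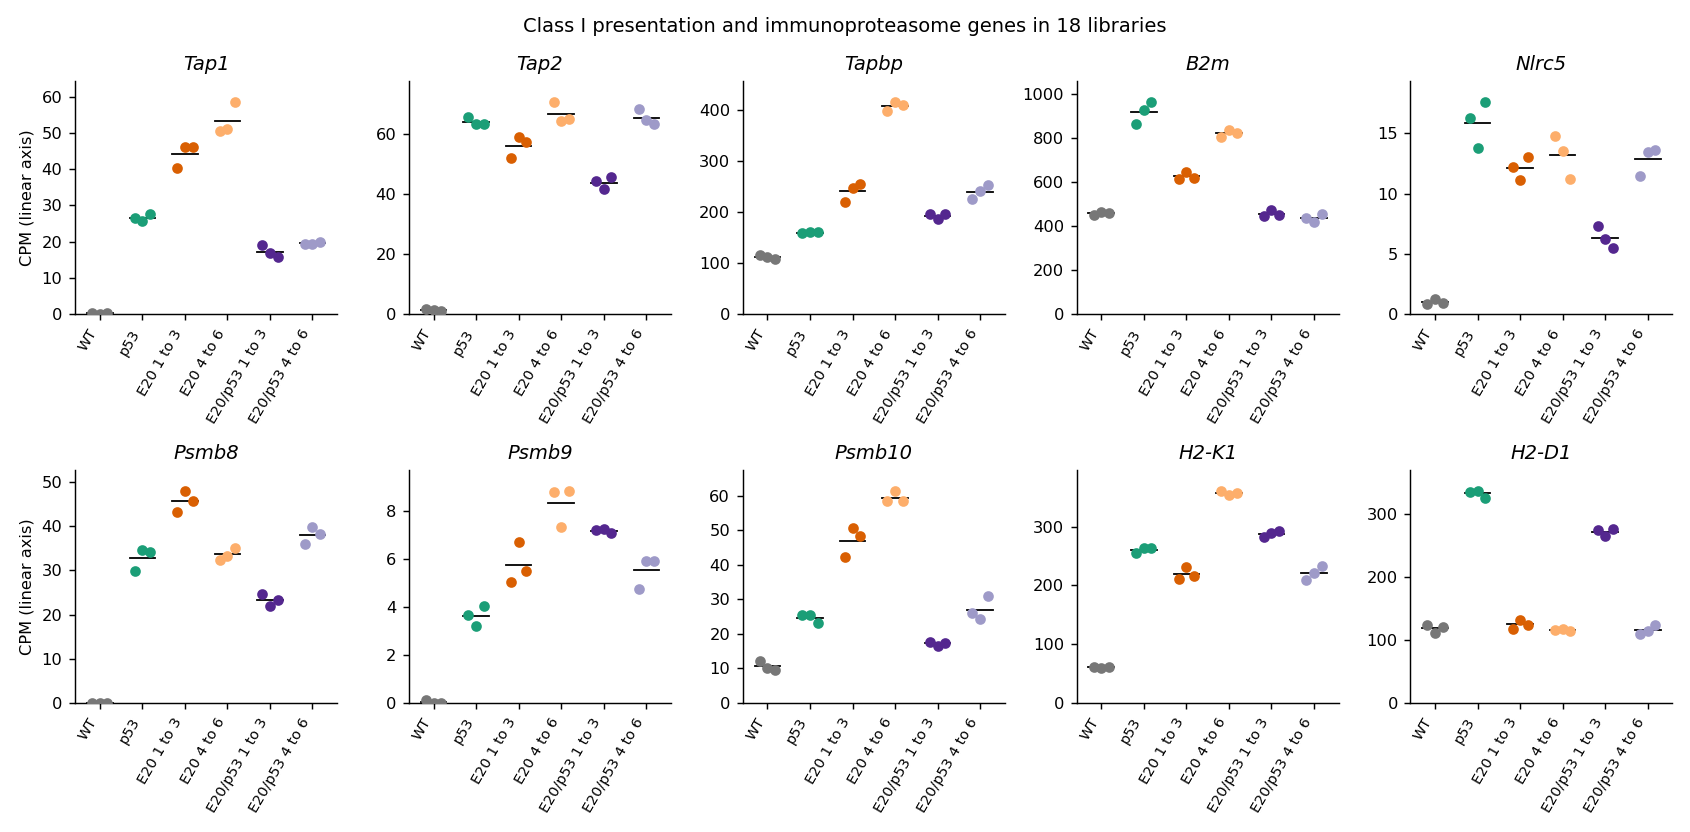
CPM of each of the 10 genes (linear axes from 0) in 18 libraries. Points are single libraries, coloured by set, and black bars are the means of 3 libraries. Tap1 and Psmb10 are highest in both E20 sets, B2m is lowest in WT and in both E20/p53 sets, and H2-D1 is high in p53 and in E20/p53 1 to 3.

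Tap1, the first subunit of the peptide transporter, was at 0.3725, 0.1725 and 0.1804 CPM in WT and at 26.4, 25.6 and 27.7 CPM in p53. It was at 40.2, 46.2 and 46.1 CPM in E20 1 to 3 and 50.6, 51.1 and 58.4 CPM in E20 4 to 6. In E20/p53 it was at 19.0, 16.8 and 15.6 CPM in libraries 1 to 3 and at 19.4, 19.3 and 19.9 CPM in libraries 4 to 6. The 6 E20 libraries were all above the p53 libraries, which were all above the 6 E20/p53 libraries, and no 2 neighbouring sets overlapped. Tap2, its partner subunit, did not follow this order: its libraries were at 63.1 to 65.5 CPM in p53, 52.0 to 58.8 CPM in E20 1 to 3, 64.1 to 70.5 CPM in E20 4 to 6, 41.7 to 45.5 CPM in E20/p53 1 to 3 and 63.4 to 68.1 CPM in E20/p53 4 to 6. The p53, E20 4 to 6 and E20/p53 4 to 6 libraries overlapped for Tap2, and WT was at 1.20 to 1.55 CPM. Per kilobase of exon the Tap1 level was 0.544 ± 0.011 (SD, n = 3) and 0.555 ± 0.063 times that of Tap2 in the E20 sets, against 0.287 ± 0.014 in p53, and E20/p53 had 0.271 ± 0.030 in libraries 1 to 3 and 0.206 ± 0.010 in libraries 4 to 6. Tapbp, which bridges transporter and class I molecule, was at 108.0 to 117 CPM in WT and 159 to 161 CPM in p53. It reached 399 to 416 CPM in E20 4 to 6, above every other library, and lay at 219.9 to 256 CPM in E20 1 to 3, 187 to 197 CPM in E20/p53 1 to 3 and 227 to 253 CPM in E20/p53 4 to 6.

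Among the immunoproteasome subunits, Psmb8 (LMP7) had 0 reads in each WT library, which allows up to 0.0598 CPM over the group. It was at 29.9, 34.5 and 34.1 CPM in p53, 43.4, 48.0 and 45.7 CPM in E20 1 to 3, 32.4, 33.4 and 35.2 CPM in E20 4 to 6, 24.7, 22.02 and 23.3 CPM in E20/p53 1 to 3, and 36.0, 39.8 and 38.3 CPM in E20/p53 4 to 6. The sets of one group thus moved in opposite directions: libraries 1 to 3 were 1.36 times libraries 4 to 6 in E20, and libraries 4 to 6 were 1.63 times libraries 1 to 3 in E20/p53. Psmb9 (LMP2) was the lowest of the 3 in every tongue set. It had 2 reads in all of WT and 3.19 to 4.03 CPM in p53. Libraries 1 to 3 and 4 to 6 had 5.04 to 6.72 and 7.34 to 8.86 CPM of it in E20, and 7.08 to 7.28 and 4.76 to 5.92 CPM in E20/p53. Psmb10 (MECL-1) was at 12.04, 10.2 and 9.38 CPM in WT and 25.6, 25.4 and 23.2 CPM in p53. In E20 it was at 42.1, 50.7 and 48.3 CPM in libraries 1 to 3 and 58.4, 61.4 and 58.6 CPM in libraries 4 to 6. In E20/p53 it was at 17.8, 16.6 and 17.5 CPM in libraries 1 to 3 and 26.02, 24.3 and 30.9 CPM in libraries 4 to 6. All 6 E20 libraries were above all others for Psmb10, and E20/p53 4 to 6 overlapped with p53.

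Read against the constitutive subunit that each replaces, per kilobase of exon, Psmb10 stood at 0.475 ± 0.038 and 0.611 ± 0.013 (SD, n = 3) times Psmb7 in the E20 sets. It stood at 0.204 ± 0.015 in p53, and E20/p53 had 0.181 ± 0.011 (libraries 1 to 3) and 0.196 ± 0.025 (libraries 4 to 6), beside 0.105 ± 0.015 in WT. Psmb8 stood at 0.0986 ± 0.0082 times Psmb5 in p53, 0.174 ± 0.0069 and 0.149 ± 0.0042 in E20 and 0.126 ± 0.0042 and 0.124 ± 0.0084 in E20/p53, so that its 2 E20/p53 sets, apart in CPM, overlapped in this ratio. Psmb9 stood at 0.0259 times Psmb6 or less in every library. Per length, the constitutive subunit was the more abundant transcript of each pair in all 18 libraries. The lengths count every base in any annotated exon, from 899 bases for Psmb5 to 3660 for Psmb9. The size of a ratio therefore depends on the gene models, and it is read here between sets.

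**Figure D2:**
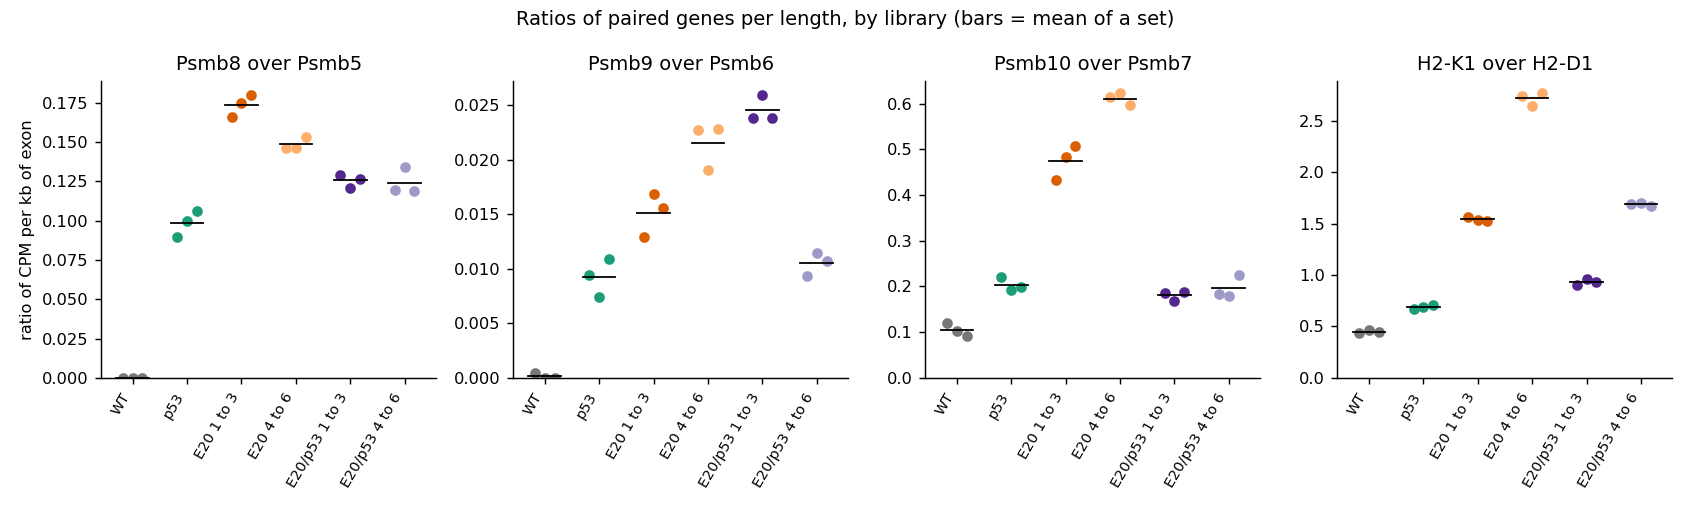
Ratios of paired genes, each in CPM per kilobase of exon (linear axes from 0), in 18 libraries coloured by set, with bars at the means of 3 libraries. The Psmb10 over Psmb7 ratio is 0.433 or more in every E20 library and 0.224 or less in every other library, and the H2-K1 over H2-D1 ratio is highest in E20 4 to 6.

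B2m, the light chain common to class I molecules, was the most abundant of the 10 genes in CPM in every library. It was at 450, 466 and 458 CPM in WT, 862, 929 and 963 CPM in p53, 615, 645 and 620 CPM in E20 1 to 3 and 807, 837 and 822 CPM in E20 4 to 6. In E20/p53 it was at 445, 473 and 452 CPM in libraries 1 to 3 and 437, 418 and 456 CPM in libraries 4 to 6. It was the one gene of the 10 for which both E20/p53 sets overlapped with each other, and with WT. H2-K1, a classical heavy chain, was at 59.2 to 61.4 CPM in WT, 255 to 264 CPM in p53, 210.2 to 231 CPM in E20 1 to 3 and 354 to 361 CPM in E20 4 to 6. In E20/p53 it was at 282 to 293 CPM in libraries 1 to 3 and 209 to 234 CPM in libraries 4 to 6. H2-D1, the other heavy chain, was at 124, 111 and 120.4 CPM in WT and 334, 336 and 325 CPM in p53. It was at 118, 132 and 124 CPM in E20 1 to 3 and 116, 117 and 113 CPM in E20 4 to 6. In E20/p53 it was at 274, 264 and 276 CPM in libraries 1 to 3 and 109, 114 and 123 CPM in libraries 4 to 6, a 2.36-fold difference within the group. WT, both E20 sets and E20/p53 4 to 6 lay between 109 and 132 CPM, and p53 and E20/p53 1 to 3 lay above it. Per kilobase, H2-K1 was at 0.450 ± 0.017 (SD, n = 3) times H2-D1 in WT, 0.690 ± 0.021 in p53, 1.54 ± 0.020 and 2.72 ± 0.067 in E20 libraries 1 to 3 and 4 to 6, and 0.933 ± 0.029 and 1.69 ± 0.015 in the same sets of E20/p53. The order of the heavy chains thus differed between sets, with the uncertain split between these paralogs as a limit.

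Nlrc5, the class I transactivator, was low throughout. It was at 0.869, 1.26 and 0.962 CPM in WT, 16.3, 13.8 and 17.6 CPM in p53, 12.2, 11.2 and 13.1 CPM in E20 1 to 3 and 14.8, 13.6 and 11.2 CPM in E20 4 to 6. In E20/p53 it was at 7.34, 6.22 and 5.45 CPM in libraries 1 to 3 and 11.5, 13.5 and 13.6 CPM in libraries 4 to 6. Libraries 4 to 6 of E20/p53 overlapped with both E20 sets, and libraries 1 to 3 lay below all other tongue libraries.

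The comparison of E20/p53 with E20 asks what the mutant p53 allele adds beside the PI3-kinase allele, although K14-Cre is named for E20/p53 alone, so that the p53 allele and the Cre cannot be told apart. Tap1, Psmb10, B2m and Tapbp were lower in E20/p53, and none of the 10 genes was higher. Tap1 averaged 18.3 ± 1.71 CPM (SD, n = 6) in E20/p53 against 48.8 ± 6.14 CPM in E20, a log2 change of -1.41 (SE 0.14, limma adjusted p = 8.31e-07). Psmb10 averaged 22.2 ± 5.79 against 53.24 ± 7.42 CPM, a log2 change of -1.29 (SE 0.15, limma adjusted p = 4.05e-06), and B2m 447 ± 18.5 against 724 ± 108 CPM, a log2 change of -0.68 (SE 0.08, limma adjusted p = 9.08e-06). For these 3 genes every E20/p53 library was below every E20 library. Tapbp changed by -0.54 (SE 0.15, limma adjusted p = 0.00951), with libraries that overlapped. The adjusted p was above 0.05 for Psmb8 (log2 -0.40, adjusted p = 0.0587), H2-D1 (0.56, adjusted p = 0.0539), Nlrc5 (-0.48, adjusted p = 0.0799), Tap2 (-0.19, adjusted p = 0.239), H2-K1 (-0.15, adjusted p = 0.435) and Psmb9 (-0.13, adjusted p = 0.704).

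The 4 of 10 genes called stand against 42.6% of the 15235 genes tested, and against 19.6% called lower. The 3 of 10 without overlap stand against 22.5% in either direction and 11.2% with E20/p53 below. The median log2 change was -0.44 over the 10 genes and 0.05 over all genes tested. With any one set of 3 libraries left out, the log2 change lay between -1.27 and -1.54 for Tap1, between -0.97 and -1.61 for Psmb10 and between -0.49 and -0.88 for B2m, and each remained below 0.05 in adjusted p. The Tapbp call was lost without E20 4 to 6 (log2 -0.16, adjusted p = 0.203) and without E20/p53 1 to 3 (-0.38, adjusted p = 0.101). The number called was 8 without E20/p53 4 to 6 (9912 of the 15235 genes tested) and 3 without E20/p53 1 to 3 (8063 of them). H2-D1 was higher (1.18) in the first of these fits and at -0.06 in the other, and Nlrc5 was at -0.995 and 0.03. Psmb8 was called lower without E20/p53 4 to 6 (-0.75), without E20 4 to 6 (-0.62), without E20 library 4 (adjusted p = 0.0466), without E20/p53 library 4, 5 or 6 (adjusted p = 0.0243 to 0.0408) and with median-of-ratios scaling (adjusted p = 0.0416). H2-D1 was called higher without E20/p53 library 4, 5 or 6 (adjusted p = 0.0139 to 0.0252), and Nlrc5 lower without library 5 or 6 (adjusted p = 0.0306 and 0.0283). Tap2 was called lower without E20/p53 4 to 6 (-0.48, adjusted p = 0.000516), and H2-K1 without E20 1 to 3 (-0.50, adjusted p = 0.00133). With each set averaged to 1 value, so that 6 values entered the fit, 0 of the 10 and 0 of all genes passed by limma, with 2 of the 10 and 973 of all genes at an unadjusted p under 0.05.

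**Figure D3:**
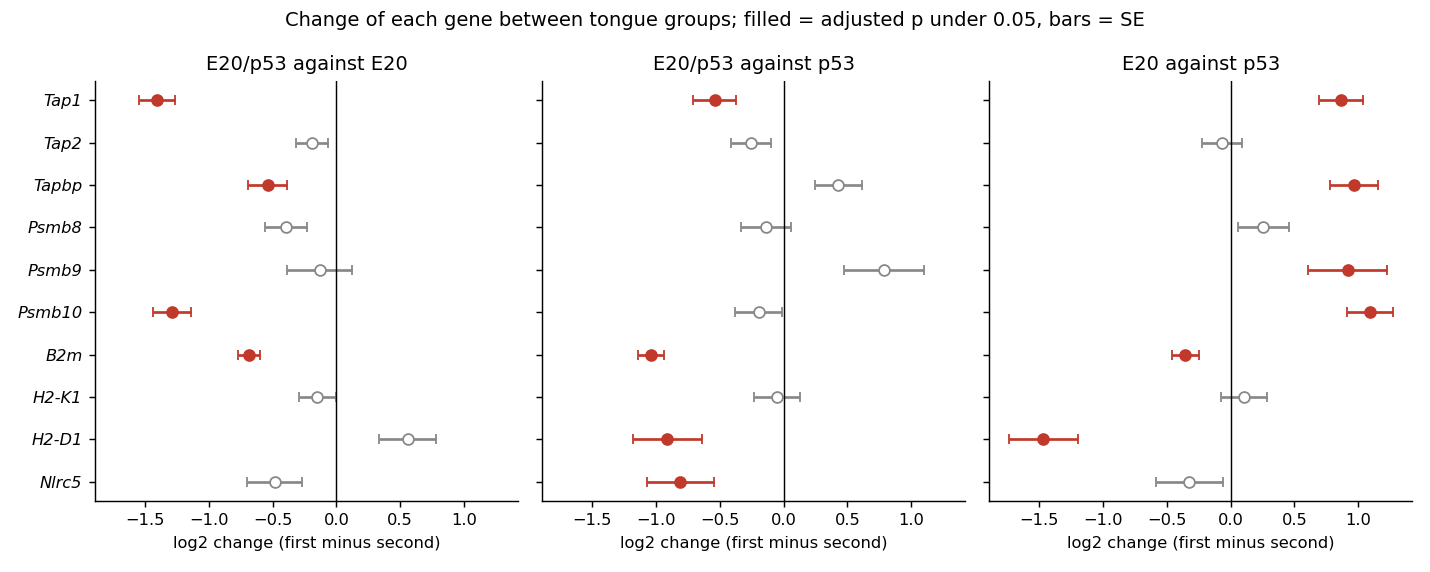
Log2 change (first group minus second) of the 10 genes in 3 comparisons between tongue groups. Points are the fitted values, bars are standard errors, and filled points have an adjusted p under 0.05 (limma, 18 libraries). Tap1, Psmb10 and B2m lie farthest left in the comparison of E20/p53 with E20, at -1.41, -1.29 and -0.68.

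The comparison of E20/p53 with p53 asks what the PI3-kinase allele adds beside mutant p53, and here too the allele and K14-Cre cannot be told apart. B2m was 2.05-fold lower in E20/p53, and H2-D1, Nlrc5 and Tap1 were lower by smaller and less stable amounts. B2m averaged 447 CPM against 918 ± 51.5 CPM (SD, n = 3) in p53, a log2 change of -1.04 (SE 0.10, limma adjusted p = 2.98e-06), and was at -1.07 and -1.01 with either E20/p53 set left out. H2-D1 changed by -0.91 (SE 0.27, adjusted p = 0.0226), Nlrc5 by -0.81 (SE 0.26, adjusted p = 0.0333) and Tap1 by -0.54 (SE 0.17, adjusted p = 0.0286). For all 4 genes every E20/p53 library was below every p53 library, and for Tapbp and Psmb9, which were not called (log2 0.43, adjusted p = 0.0996 and log2 0.79, adjusted p = 0.0748), every E20/p53 library was above. The 4 of 10 called stand against 25.8% of all genes tested in either direction and 12.9% called lower. The 6 of 10 without overlap stand against 32.5%, where 15.9% had E20/p53 above and 16.6% below. The median log2 change was -0.23 over the 10 and 0.02 over all genes. Without E20/p53 4 to 6, Tap2 (-0.547, adjusted p = 0.00062), Psmb8 (-0.49, adjusted p = 0.0119) and Psmb10 (-0.515, adjusted p = 0.00343) were also called lower and Psmb9 higher (0.977, adjusted p = 0.0325).

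Calls other than B2m rested on few libraries. Leaving out any single p53 library raised the adjusted p to 0.0656 to 0.0753 for H2-D1, 0.0608 to 0.123 for Nlrc5 and 0.0728 to 0.1 for Tap1, and left B2m as the 1 gene called. H2-D1 was at -1.53 in E20/p53 4 to 6 against p53 and at -0.29 in E20/p53 1 to 3, both called. Nlrc5 was at -0.30 (adjusted p = 0.161) and -1.32, and Tap1 at -0.45 (adjusted p = 0.0984) and -0.64, in the same order. Without E20/p53 libraries 1, 2 or 3 the Nlrc5 call was lost as well (adjusted p = 0.0589 to 0.0646), and without libraries 2 or 3 the Tap1 call (adjusted p = 0.0519 and 0.0558). With the 2 compared groups alone in the fit, H2-D1 (adjusted p = 0.12) and Nlrc5 (adjusted p = 0.122) were not called, while Tapbp and Psmb9 were called higher. With 2 set means against 1, 0 of the 10 and 0 of all genes passed by limma (1 of the 10 and 422 of all genes at an unadjusted p under 0.05).

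The comparison of E20 with p53 sets the groups labelled with single alleles against each other. The labels name no Cre for either group, so whether the stop was removed is not given. Psmb10, Tapbp, Psmb9 and Tap1 were higher in E20, and H2-D1 and B2m were lower. Psmb10 differed by a log2 change of 1.09 (SE 0.18, limma adjusted p = 0.000247), Tapbp by 0.97 (SE 0.19, adjusted p = 0.000895) and Tap1 by 0.87 (SE 0.17, adjusted p = 0.00105), and all remained called with either E20 set left out, at 0.92 to 1.26, 0.59 to 1.35 and 0.73 to 1.00. H2-D1 differed by -1.47 (SE 0.27, limma adjusted p = 0.00068), a 2.77-fold lower level, and by -1.52 and -1.41 with either E20 set left out. The Psmb9 call (0.92, SE 0.31, adjusted p = 0.0352) was lost without any one p53 library (adjusted p = 0.0698 to 0.127), without E20 library 4, 5 or 6 (adjusted p = 0.0573 to 0.0672), without E20 4 to 6 (log2 0.65, adjusted p = 0.213) and with no filter on low counts (adjusted p = 0.0515). The B2m call (-0.35, SE 0.10, adjusted p = 0.0158) was lost without p53 library 2 or 3 (adjusted p = 0.0583 and 0.0759) and without E20 1 to 3 (-0.16, adjusted p = 0.0673). The 6 of 10 called, all of them without overlap between libraries, stand against 30.9% called among all genes (14.5% higher and 16.4% lower) and 45.5% without overlap (21.7% with E20 above and 23.8% below). H2-K1 (0.10, adjusted p = 0.712), Tap2 (-0.07, adjusted p = 0.786), Psmb8 (0.26, adjusted p = 0.351) and Nlrc5 (-0.32, adjusted p = 0.38) did not pass the threshold. The E20 sets disagreed for H2-K1, which was called higher without E20 1 to 3 (0.46, adjusted p = 0.00761) and was at -0.25 (adjusted p = 0.139) without E20 4 to 6. With 2 set means against 1, 0 of the 10 and 0 of all genes passed by limma (0 of the 10 and 629 of all genes at an unadjusted p under 0.05). The 3 comparisons share their groups pairwise, so their values are not independent of one another.

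In the comparisons with WT, tissue and genotype cannot be told apart, since WT is esophagus and all other libraries are tongue. Psmb8, Psmb9 and Tap1 passed the filter on low counts through the mutant groups alone, and 7 of the 10 genes would have passed on WT, so the counts here only describe. Of the 10 genes, 9 were called higher in p53, where 54.2% of all genes tested were called and 29.3% were higher. In E20 9 were called higher (55.3% of all genes called, 29% higher) and in E20/p53 8 (48.1% and 26.5%), and none was lower. Tapbp in p53 (log2 0.51, limma adjusted p = 0.0543), H2-D1 in E20 (0.02, adjusted p = 0.956), and B2m and H2-D1 in E20/p53 (-0.04, adjusted p = 0.795 and 0.58, adjusted p = 0.0906) were not called. H2-D1 was called higher in E20/p53 without library 4, 5 or 6 (adjusted p = 0.0293 to 0.0491) and without E20/p53 4 to 6 (1.198, adjusted p = 8.15e-10), and was at -0.04 (adjusted p = 0.602) without E20/p53 1 to 3. With set means, 2 of the 10 genes, Tap1 and Psmb8, passed by limma for E20 (8 of all genes), and 0 of the 10 for p53 and for E20/p53 (1 of all genes in each), with 8, 6 and 6 of the 10 at an unadjusted p under 0.05.

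The 4 genes with the fewest reads in WT were described by their reads. Psmb8, with 0 reads, was at least 549-fold higher in p53, at least 666-fold in E20 and at least 510.0-fold in E20/p53, against a floor of 3 reads over the group. Tap1, with 12 WT reads in all, was 111-fold higher in p53 (exact 95% interval 63.4 to 216), 204-fold in E20 (116 to 394) and 76.2-fold in E20/p53 (43.5 to 148). Psmb9, with 2 WT reads, was 91.2-fold (24.9 to 760), 176-fold (48.6 to 1460) and 160-fold (44.1 to 1323) higher, and Nlrc5, with 52 WT reads, 15.3-fold (11.6 to 20.7), 12.2-fold (9.21 to 16.4) and 9.16-fold (6.93 to 12.4). These bounds and intervals cover counting error only. Tap2 rose by 5.52, 5.46 and 5.26 on the log2 scale in p53, E20 and E20/p53, H2-K1 by 2.11, 2.21 and 2.06 and Psmb10 by 1.23, 2.33 and 1.04, each called by limma. The constitutive subunits Psmb5, Psmb6 and Psmb7 were at 52.8, 136 and 203 CPM in WT, where Psmb8 and Psmb9 had 0 and 2 reads.

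**Figure D4:**
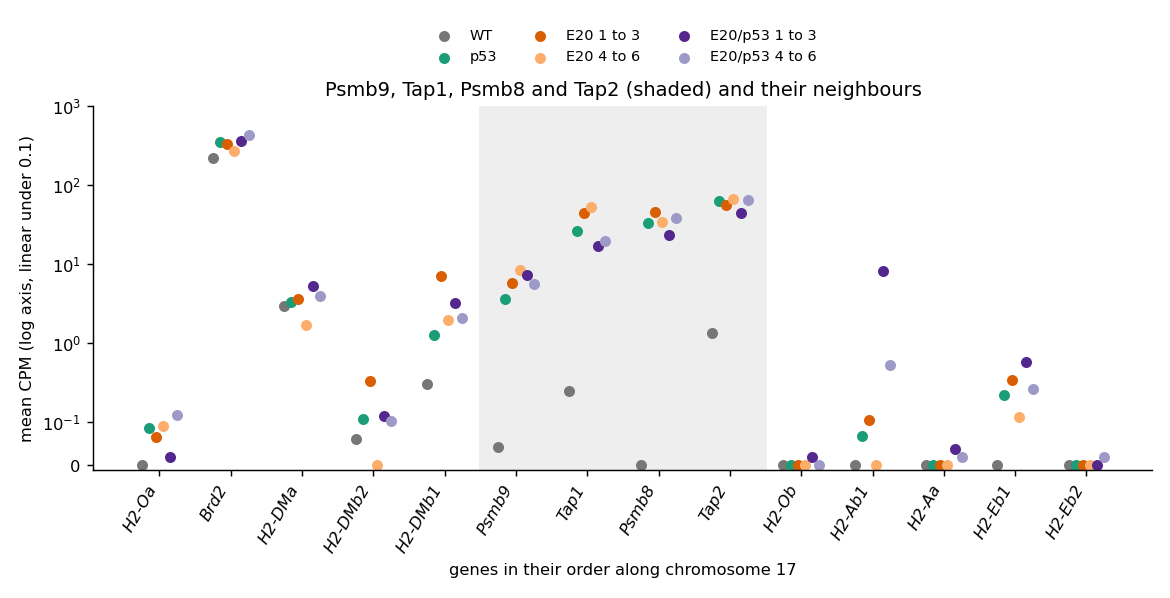
Mean CPM of 3 libraries in each set for Psmb9, Tap1, Psmb8 and Tap2 (shaded) and the genes around them, in their order along chromosome 17. The vertical axis is logarithmic above 0.1 CPM and linear below it. The 4 shaded genes are at 1.34 CPM or less in WT and between 3.64 and 66.6 CPM in the tongue sets, while Brd2 is at 218 CPM or more in all 6 sets.

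Levels of the genes beside the cluster on chromosome 17 varied. Brd2, a bromodomain gene on one side, was at 218 CPM in WT and 274 to 429 CPM in the tongue sets. The class II genes on both sides were at 8.08 CPM or less in all sets: H2-DMa, a peptide exchange factor of class II, lay between 1.69 and 5.20 CPM and H2-Aa, a class II chain, at 0.0374 CPM or less. H2-DMb1, the listed gene next to Psmb9, was also lowest in WT, at 0.299 CPM against 1.24 CPM in p53, 7.01 and 1.96 CPM in E20 1 to 3 and 4 to 6 and 3.22 and 2.04 CPM in the same sets of E20/p53, and in E20 1 to 3 it was above Psmb9 (5.76 CPM). H2-Ab1, the partner chain of H2-Aa, was at 8.08 CPM in E20/p53 1 to 3 and at 0.521 CPM or less elsewhere.

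Genes that act with the 10 were read from 6 fixed lists, where a count gives those called higher and lower in the first group. Of 26 upstream regulators of interferon, NF-kB and class I transcription, 5 were higher and 10 lower in E20/p53 than in E20 (42.6% of all genes called), 5 and 4 in E20/p53 against p53 (25.8%), and 9 and 2 in E20 against p53 (30.9%). Irf9, the DNA-binding subunit of the complex that acts at interferon response elements, was at 59.4 CPM in p53, 84.8 and 126 CPM in the E20 sets and 19.3 to 21.8 CPM and 16.4 to 18.2 CPM in the libraries of E20/p53 1 to 3 and 4 to 6, with a log2 change of -2.45 (adjusted p = 2.76e-10) between E20/p53 and E20. Irf7, an interferon-induced factor that drives further interferon, was at 28.4 CPM in p53, 97.5 and 224 CPM in E20 and 5.80 and 1.23 CPM in E20/p53, a log2 change of -5.75 (adjusted p = 5.84e-08) between the latter. Stat2, another subunit of that complex, changed by -2.59 (adjusted p = 7.8e-06) and the interferon gamma receptor chain Ifngr1 by -0.90 (adjusted p = 1.6e-06) in that comparison. Irf1, a known activator of Tap1 and Psmb9, was at 66.8 CPM in p53, 91.9 and 111 CPM in E20 and 62.5 and 111 CPM in E20/p53 and was not called between E20/p53 and E20 (-0.28, adjusted p = 0.167). Without E20/p53 4 to 6, 7 of the 26 were higher and 15 lower than in E20, and without E20 4 to 6, 5 were higher and 7 lower. In E20 against p53, 5 were higher and 2 lower without E20 4 to 6 (4421 of all genes called).

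**Figure D5:**
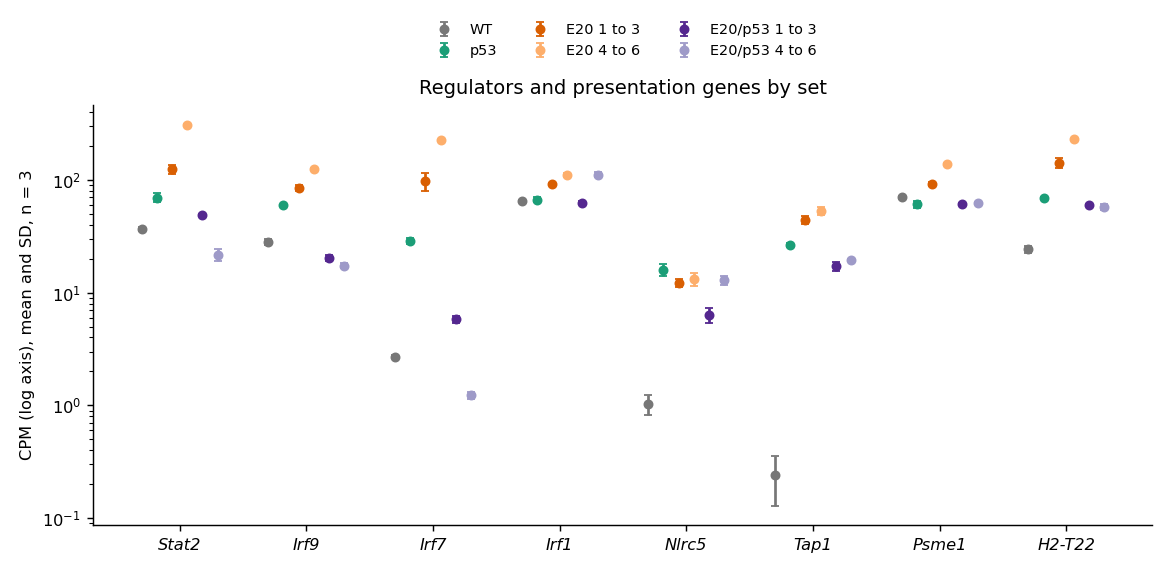
Mean CPM (logarithmic axis) and SD of 3 libraries in each set for 4 regulators and 4 genes of the class I pathway. Stat2, Irf9, Irf7, Tap1, Psme1 and H2-T22 are highest in E20 4 to 6, while Irf1 and Nlrc5 do not separate E20 from E20/p53 4 to 6.

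Of 15 core proteasome genes, Psmb5, Psmb6 and Psmb7 among them, 3 were higher and 0 lower in E20/p53 than in E20, beside 42.6% of all genes called, and the log2 changes of Psmb5, Psmb6 and Psmb7 were -0.03, 0.04 and 0.23 (limma adjusted p = 0.865, 0.874 and 0.0832). That count was 11 higher and 2 lower without E20/p53 1 to 3, and 2 higher and 8 lower without E20/p53 4 to 6. Against p53, 0 were higher and 2 lower in E20/p53 (25.8% of all genes called). With E20/p53 1 to 3 left out, 7 were higher and 2 lower (5209 of all genes called). With E20/p53 4 to 6 left out, 0 were higher and 13 lower (9734 of all genes called). In E20 against p53, 0 were higher and 1 was lower (30.9% of all genes called). Of the 4 proteasome activators tested, the interferon-induced caps Psme1 (PA28 alpha, log2 -0.88, adjusted p = 1.26e-05) and Psme2 (PA28 beta, -0.98, adjusted p = 0.000539) were lower in E20/p53 than in E20, and the other 2 were higher. With any one set left out, 1 of the 4 was higher and 2 were lower than in E20 (5826 to 9912 of all genes called). Against p53, none of the 4 was called in E20/p53 by limma (0 at an unadjusted p under 0.05). Without E20/p53 1 to 3, 1 was higher than in p53 (5209 of all genes called), and without E20/p53 4 to 6, 2 were lower (9734 called). In E20 against p53, 2 of the 4 were higher and 2 lower (30.9% of all genes called), and 1 and 1 without E20 4 to 6 (4421 called). Psme1 was among those higher in E20 (0.90, limma adjusted p = 0.000117).

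Among 10 genes of the loading complex and of peptide trimming, 0 were higher and 5 lower in E20/p53 than in E20, where 42.6% of all genes were called and 19.6% were lower. Calr, the chaperone calreticulin, changed by -0.94 (limma adjusted p = 0.00892) and Pdia3, the disulfide isomerase ERp57, by -0.51 (adjusted p = 0.00663). Their changes were smallest with E20/p53 1 to 3 left out (log2 -0.209 and -0.162), and both stayed called. With E20/p53 4 to 6 left out they were largest (-1.669 and -0.863). For E20/p53, Calr averaged 470 CPM (libraries 1 to 3) and 1293 CPM (libraries 4 to 6), beside 1424 and 1569 for E20. Both calls were lost without E20 4 to 6 (log2 -0.87 and -0.467, adjusted p = 0.0703 and 0.0563). In that fit 2 of the 10 were higher and 2 lower. Without E20/p53 4 to 6, 1 was higher and 7 were lower than in E20, and without E20/p53 1 to 3, 1 and 4. Against p53 (25.8% of all genes called), 3 were higher and 0 lower in E20/p53. That count was 3 higher and 6 lower without E20/p53 4 to 6 (9734 called), and 6 and 0 without E20/p53 1 to 3 (5209 called). In E20, 3 were higher and 2 lower than in p53 (30.9% of all genes called), and 5 and 0 without E20 1 to 3 (6180 called).

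Of 18 other class I and class I-like genes tested, 1 was higher and 10 were lower in E20/p53 than in E20, where 42.6% of all genes were called and 19.6% were lower. The count was 0 higher and 5 lower without E20 4 to 6, and 4 and 10 without E20/p53 4 to 6. Against p53, 1 was higher and 6 were lower in E20/p53 (25.8% of all genes called, 12.9% lower). The count was 2 and 9 without E20/p53 1 to 3 (5209 called), and 3 and 8 without E20/p53 4 to 6 (9734 called). In E20, 6 were higher and 4 lower than in p53 (30.9% called, 14.5% higher and 16.4% lower). H2-T22, a non-classical class I gene, was at 69.5 CPM in p53. Libraries 1 to 3 and 4 to 6 were at 142 and 229 CPM in E20 and at 59.7 and 57.5 CPM in E20/p53, a log2 change of -1.62 (SE 0.14, limma adjusted p = 1.25e-07) between E20/p53 and E20. H2-T23, which encodes Qa-1, a ligand of NKG2 receptors, changed by -1.95 (limma adjusted p = 0.0003). Fcgrt, the heavy chain of the neonatal Fc receptor that pairs with B2m, changed by -1.78 (adjusted p = 2.37e-05). H2-T23 and Fcgrt were at -2.856 and -1.119 without E20/p53 1 to 3, and at -1.049 and -2.435 without E20/p53 4 to 6. H2-T10 took a different order: at 47.5 CPM it was highest in p53, at 12.8 and 18.7 CPM in E20 and at 7.97 and 8.20 CPM in E20/p53, with log2 changes of -1.62 (adjusted p = 1.02e-06) in E20 and -2.55 (adjusted p = 9.38e-09) in E20/p53 against p53. H2-Q4 was lower than in p53 in both as well (-1.10, adjusted p = 0.000614 and -1.08, adjusted p = 0.00108). In E20/p53 it was at -1.489 without libraries 1 to 3 and at -0.663 without libraries 4 to 6. These genes resemble one another in sequence, so the split of reads among them is uncertain.

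Across the 18 libraries, in 6 sets, the genes with the log2 level most like Tap1 were Gli2 (Pearson r = 0.994), Tshz3 (0.994), Sirpa (0.993), Pdpn (0.988) and Robo1 (0.988). For H2-K1 they were Mkx (0.982), Kif14 (0.978), Sltm, Raet1e and Eif4e3 (0.975 each), and for Nlrc5 Cacna2d1 (0.991), Dynlt1b (0.987), Peg3, Col5a3 and Tmem47 (0.986 each). The points share the WT and tongue sets, and libraries of a set share their source. Among the 10 genes themselves, Tap1 and Tap2 had r = 0.978 over the 18 libraries and 0.452 over the 15 from tongue, and Tap1 and Psmb8 0.979 and 0.559. Tap1 and Psmb10 had 0.842 over 18 and 0.945 over 15, the highest of the pairs in tongue. H2-D1 had a negative r with 7 of the other 9 genes in tongue, with -0.496 to Tap1, -0.709 to Psmb10 and -0.784 to Tapbp. All of these correlations describe these libraries and have no test.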

How the data were processed

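RNA-seq libraries of 18 samples in 4 groups were analysed from the table the authors deposited, in log2 units. The submitters' processing notes name bcl2fastq 1.8.4, Trimmomatic and featureCounts, and the build mm10. Not given in the sources used here: aligner, annotation, strand use and scaling method. The deposited values equal log2 of reads plus 1 over a scaled total: 100% of values returned whole reads within 0.001. CPM are reads per 1000000 of that total. Exon lengths count each base in any GENCODE M21 exon of a gene once, over all its transcripts.

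Groups were compared with limma 3.58.1 (R 4.3.3, mean-variance trend, 1 fit over 18 libraries with a mean per group), with Benjamini-Hochberg adjustment over 15235 genes that had at least 0.635 CPM of the sum of reads (10 reads at the median depth) in 3 or more libraries and 15 reads in all. An adjusted p under 0.05 was called. The script was tested on simulated data. Log2 changes, and folds taken from them, carry a pseudocount of 1 read. Folds over WT described by reads, and folds between the sets of a group, carry none. At 14592044 to 18176060 reads, a level of 0 reads allows 3 reads.

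All 10 members are named, and companions come from 6 lists, of which 1 gene is counted and not reported here. The genes most alike Tap1, H2-K1 and Nlrc5 are the 5 with the highest Pearson r among tested genes with a group mean of at least 5 CPM. Members and lists were chosen with earlier results of these data known. Motifs were searched in RefSeq promoter windows (GRCm38.p6). Alternatives were another filter, scaling, pseudocount and variance model, the compared groups alone, a replicate block, set means, and each library or set left out.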

Additional observations from a re-analysis of the deposited data

How the results depend on the processing

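Over 1716 alternative values for single genes, 1520 kept their direction and side of the threshold, 126 kept their direction and lost the call, 48 gained a call and 22 changed sign; the cause was not tested. The sign changes were all of uncalled values. In E20/p53 against E20 they were Psmb9 0.136 and H2-K1 0.204 without E20 4 to 6, Psmb9 0.06 and H2-K1 0.042 without E20/p53 4 to 6, and Tap2 0.098, Nlrc5 0.026 and H2-D1 -0.061 without E20/p53 1 to 3. Against p53, those of E20/p53 were H2-K1 0.141 with voom and quality weights, -0.091 to 0.007 with single libraries left out, and 0.144 without E20/p53 4 to 6, and Tap2 0.031, Psmb8 0.214 and Psmb10 0.123 without E20/p53 1 to 3. In E20 against p53 they were Tap2 0.024 with voom and 0.057 without E20 1 to 3, and H2-K1 -0.252 without E20 4 to 6. H2-D1 in E20 against WT was at -0.012 with median-of-ratios scaling, -0.038 with voom, -0.025 to 0.053 with single libraries left out (-0.007 without E20 library 2) and -0.034 without E20 1 to 3, and in E20/p53 against WT at -0.04 without E20/p53 1 to 3.

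Voom with sample quality weights called 11622 genes (9 of the 10) in E20/p53 against E20, 11862 (9) in E20/p53 against p53, 10729 in E20 against p53, 12428 in p53 against WT and 11369 in E20/p53 against WT, against 6491, 3924, 4709, 8259 and 7333 in the main analysis. With 6 set means, which leave 2 residual degrees of freedom, 0, 0 and 0 genes were called between the tongue groups and 1, 8 and 1 for p53, E20 and E20/p53 against WT (0, 2 and 0 of the 10). Without E20/p53 4 to 6, 9912 genes (8 of the 10) were called against E20 and 9734 (8) against p53. Without E20/p53 1 to 3, 8063 genes (3 of the 10) were called against E20 and 5209 (2) against p53.

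With single libraries left out, the members called ranged from 4 to 7 in E20/p53 against E20 (5840 to 6836 of all genes), 1 to 4 in E20/p53 against p53 (2331 to 4691), 4 to 6 in E20 against p53 (3360 to 4761), 9 to 9 in p53 against WT (6987 to 7235), 9 to 9 in E20 against WT (7163 to 8277) and 8 to 9 in E20/p53 against WT (5929 to 7614). Replicate numbers did not pair the libraries: the deviations of same-numbered libraries from their group means correlated at -0.054 to 0.074, and 4 of 21 libraries correlated best with their own number. With the replicate block, 6410 genes and 5 of the 10 were called in E20/p53 against p53, where H2-D1 lost its call (-0.573, adjusted p = 0.0691) and Tap2 (-0.464, adjusted p = 0.00596) and Psmb10 (-0.441, adjusted p = 0.0133) gained one. Under the block, H2-D1 was also called in E20/p53 against E20 (adjusted p = 0.0226) and against WT (0.00715), Tapbp in p53 against WT (0.00311), and Psmb9 was not called in E20 against p53 (0.088). Companion lists without each set were added after seeing the data. Depth limits Psmb9, at 3.19 to 8.86 CPM in tongue, most among the 10.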

Other observations

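The MHC class II genes, which present extracellular peptides, were mostly outside the tested range. Of 11 listed genes, 4 passed the filter, and 2 were called higher and 0 lower in E20/p53 than in E20 by limma, where 42.6% of all genes were called. The count was 1 higher and 1 lower without E20 4 to 6, and 2 higher and 1 lower without E20/p53 4 to 6. Cd74, the invariant chain of class II, was at 0.12 CPM in WT, 1.17 CPM in p53, 4.52 and 11.6 CPM in the E20 sets, and 0.114 and 19.6 CPM in E20/p53 1 to 3 and 4 to 6. H2-Ab1 was at 8.08 CPM in E20/p53 1 to 3 and at 0.521 CPM in E20/p53 4 to 6, so the set with the higher Cd74 had the lower H2-Ab1. Ciita, the class II transactivator and a relative of Nlrc5, was at 0.362 CPM or less in every set. H2-DMb1, a class II exchange factor, was at 7.01 CPM in E20 1 to 3 and between 0.299 and 3.22 CPM in the other sets.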
